A study of Danio rerio with 6 samples.

Results

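The splicing factor and hnRNP genes described here are the genes whose zebrafish symbol, read without regard to case, begins with srsf, hnrnp, snrp, sf3a, sf3b, u2af or prpf. Of 32266 genes listed, 76 met this rule, and 73 of them had enough reads to be tested. They were measured by RNA sequencing of whole zebrafish embryos of the Tubingen (TU) strain at 50% epiboly, early in gastrulation, with 25 embryos pooled in each library. The MZsmad4a embryos (3 libraries) lacked both the maternal and the zygotic supply of smad4a, through a CRISPR-induced deletion allele, and were set against wild-type (WT) embryos (3 libraries). Smad4 is the shared partner through which Nodal and BMP receptor-activated Smads regulate transcription. Each library is a pool of whole embryos, so fewer cells of a type and less RNA per cell cannot be told apart.

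Splicing removes introns from the primary transcript. The U1 small nuclear ribonucleoprotein (snRNP) recognises the splice donor, U2AF recognises the polypyrimidine tract and the AG of the acceptor, and the U2 snRNP, with its SF3a and SF3b complexes, binds the branch site. The Sm proteins form a ring around most of the spliceosomal small nuclear RNAs, and the PRPF proteins take part in assembling and activating the spliceosome. SR proteins generally promote the use of exons that they bind, while many hnRNPs package the transcript and can repress splice sites, and members of both families are often regulated through alternative splicing of their own transcripts. In the early embryo these proteins are supplied first from maternal transcripts and then from zygotic transcription.

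Expected counts summed to between 9807865 (WT replicate 1, the shallowest library) and 20833491 per library. The targeted gene checked the labels: smad4a had 13.1, 15.3 and 14.6 CPM (counts scaled to library size) in MZsmad4a embryos, against 54.7, 62.3 and 60.8 CPM in WT embryos, a log2 fold change of -2.05 (SE 0.13, adjusted p = 0.000546, edgeR quasi-likelihood test). Summed markers of the margin mesendoderm were at 383 to 546 TPM (scaled to transcript length as well as library size) in MZsmad4a and 717 to 829 TPM in WT, and those of ectoderm and neural cells at 1331 to 1442 TPM in MZsmad4a and 1161 to 1285 TPM in WT, with no gene of either list past the threshold. The part of these marker differences in the values below was not tested. Sums of the enveloping layer, yolk syncytial layer, germ cell and maternal store markers overlapped between genotypes.

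None of the 73 tested splicing factor genes differed between MZsmad4a and WT embryos at an adjusted p under 0.01, in either direction, by the edgeR quasi-likelihood test. Over all 15720 genes tested, 0.712% passed that threshold, 0.49% lower and 0.223% higher in MZsmad4a. At an unadjusted p under 0.05 there were 5 splicing factor genes (6.85%), 2 lower and 3 higher in MZsmad4a, against 17.5% of all genes tested. At an adjusted p under 0.05 there was none by edgeR (2.93% of all genes) and 1, prpf38b, by DESeq2 (6.71% of all genes). By DESeq2 none passed 0.01 (4.12% of all genes).

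The size of the difference could be bounded for most of these genes. The 95% interval of the fold change lay within 1.5-fold of equality for 67 of 73 genes (91.8%), against 32.0% of all genes tested and 81.7% of the 1654 tested genes with a mean above 100 TPM. The median standard error of the log2 fold change was 0.091 for the splicing factor genes and 0.23 over all genes. The 6 genes whose interval reached past 1.5-fold were prpf38b, srsf2b, SNRPG, hnrnph1, hnrnph3 and 1 of the HNRNPK genes (ENSDARG00000007034), the last 3 named after their values were seen. The median log2 fold change was 0.046 over the splicing factor genes and -0.0078 over all genes tested. Over the tested genes with a mean above 100 TPM it was 0.055. With library size as the only scaling the medians of the splicing factor genes and of all genes were -0.060 and -0.11. The gap between them was 0.055, against 0.054 with TMM scaling. With TMM scaling it was 0.026 without WT replicate 1 and 0.083 without WT replicate 2.

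**Figure D1:**
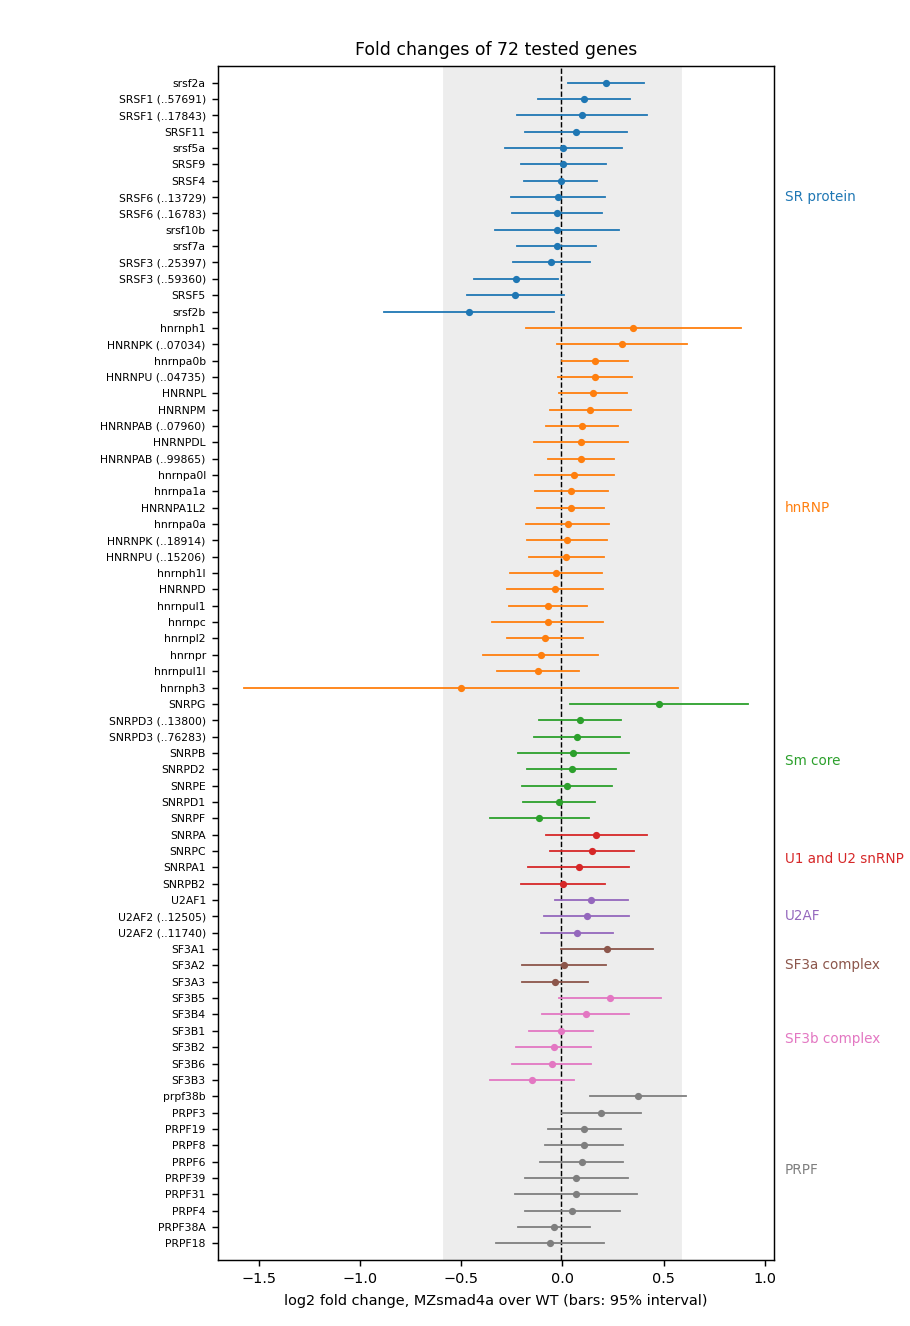
Log2 fold change (x axis, MZsmad4a over WT) of 72 tested splicing factor genes, grouped by role; points are edgeR estimates, bars their 95% intervals, the grey band a 1.5-fold difference in either direction and the dashed line the median of all genes tested (-0.0078). For 66 of them the whole interval lies inside the grey band, and hnrnph3 has the widest interval.

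As a class these transcripts were abundant. The median of their mean levels was 371.7 TPM, against 9.94 TPM over all genes tested, and 67 of 76 exceeded 100 TPM (88.2%), against 10.5% of all genes tested. Together they held 4.99, 5.14 and 5.05% of all TPM in the MZsmad4a libraries and 5.19, 5.16 and 5.14% in the WT libraries. These shares depended on 1 gene that is no splicing factor and took between 4.63 and 12.9% of TPM by library. Without it the shares were 5.52, 5.78 and 5.79% in MZsmad4a and 5.44, 5.68 and 5.65% in WT. Of all expected counts the splicing factor genes held 4.42, 4.49 and 4.44% in MZsmad4a and 4.57, 4.58 and 4.52% in WT. These count ranges were apart, lower in MZsmad4a, and were not computed without that gene. The hnRNP genes contributed 59.5 ± 0.6% of the splicing factor TPM in MZsmad4a and 59.1 ± 0.7% in WT (SD, n = 3 each), and SR protein genes 15.6 ± 0.3% and 16.2 ± 0.6%.

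**Figure D2:**
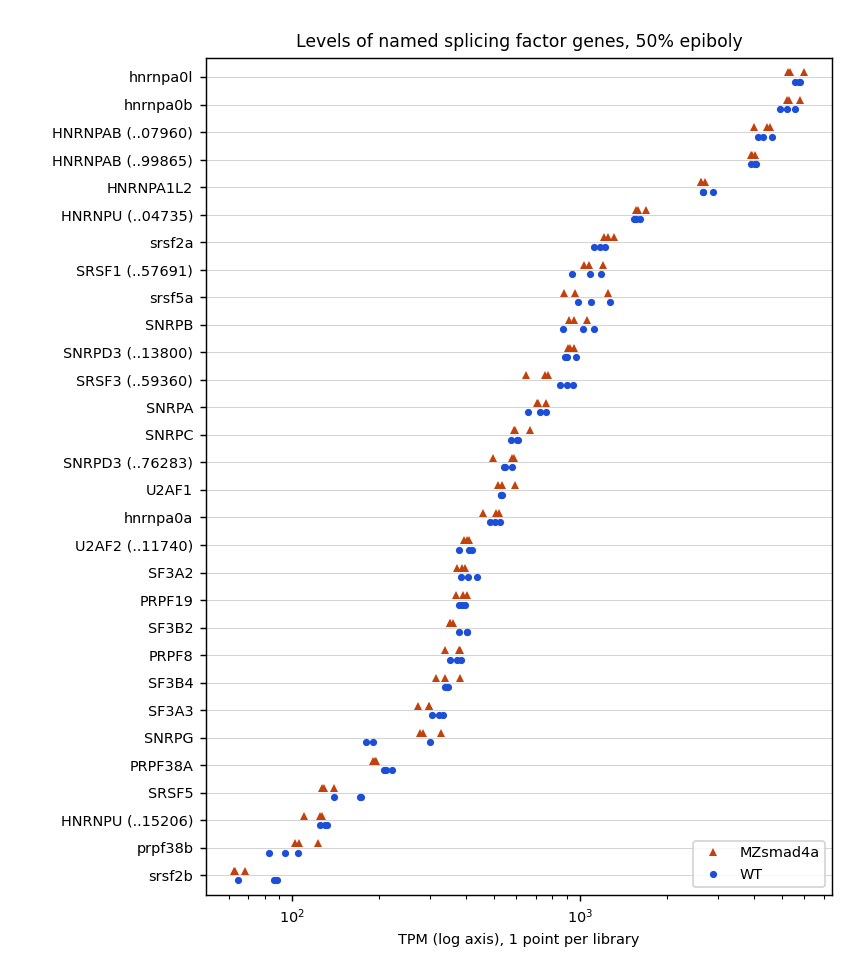
Level (x axis, TPM on a log axis) of the 30 named splicing factor genes, 1 point per library, with MZsmad4a triangles above WT circles. The genotypes lie close together on an axis that spans hnrnpa0l, at 5257 to 5971 TPM, down to srsf2b, at 62.9 to 88.6 TPM.

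Among the hnRNP genes, the most abundant were hnrnpa0l and hnrnpa0b, whose human relative binds AU-rich elements. The level of hnrnpa0l was 5257, 5327 and 5971 TPM in MZsmad4a and 5557, 5771 and 5748 TPM in WT, and that of hnrnpa0b was 5207, 5781 and 5321 TPM in MZsmad4a and 5216, 4942 and 5546 TPM in WT. The TPM ranges overlapped for both genes, while in CPM those of hnrnpa0b were apart, at 5437 to 5839 in MZsmad4a and 4771 to 5330 in WT. Their log2 fold changes were 0.059 (SE 0.084) and 0.16 (SE 0.071), with adjusted p = 0.778 and 0.286 in edgeR. Some reads were shared between hnrnpa0l and hnrnpa0b: their counts were not whole in 4 libraries, yet summed to a whole number within 0.02 in all 6. The division of those reads is an estimate. Both counts were whole in MZsmad4a replicate 2 and WT replicate 1, and how alike their sequences are was not compared. Reads were also shared by hnrnph1 with hnrnph1l, not whole in 6 libraries, and by hnrnpul1 with hnrnpul1l, not whole in 2. The counts of hnrnpa0a were not whole in any of the 6 libraries, and the gene sharing its reads was not identified.

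Both genes carrying the symbol HNRNPAB, which encodes an RNA-packaging hnRNP, followed in abundance. ENSDARG00000007960 had 4544, 4443 and 4018 TPM in MZsmad4a and 4623, 4311 and 4148 TPM in WT, and ENSDARG00000099865 had 4057, 3954 and 3904 TPM in MZsmad4a and 3908, 4044 and 4070 TPM in WT. The genotypes overlapped at both. HNRNPA1L2, related to the exon-skipping factor hnRNP A1, had 2630, 2629 and 2720 TPM in MZsmad4a and 2663, 2675 and 2878 TPM in WT (log2 fold change 0.041, SE 0.072). The main HNRNPU gene (ENSDARG00000004735), whose product is also a nuclear scaffold protein, had 1562, 1696 and 1582 TPM in MZsmad4a and 1538, 1609 and 1564 TPM in WT. Its log2 fold change was 0.16 (SE 0.080, adjusted p = 0.355, edgeR). Of 23 hnRNP genes tested none passed the threshold and none had an unadjusted p under 0.05. Their log2 fold changes ran from -0.50 (hnrnph3, at most 2.62 TPM in any library) to 0.35 (hnrnph1), with a median of 0.041. The other hnRNP genes tested were HNRNPM, hnrnpa1a, HNRNPL, hnrnpl2, HNRNPDL, both HNRNPK genes, HNRNPD, hnrnpc, hnrnpr and the second HNRNPU gene. Also tested were hnrnpa0a, hnrnph1l, hnrnpul1 and hnrnpul1l. The untested hnrnpa3 had at most 1.38 TPM in any library.

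The SR protein genes held 3 of the 5 smallest p values. The level of srsf2a, which encodes the exon definition factor SC35, was 1197, 1112 and 1239 CPM in MZsmad4a embryos and 971, 1105 and 983 CPM in WT embryos. All MZsmad4a libraries were above all WT libraries, by a narrow margin at the closest pair. The log2 fold change was 0.21 (SE 0.081, 95% interval 0.027 to 0.40, adjusted p = 0.226, edgeR). Its less abundant copy srsf2b had 74.8, 80.4 and 72.1 CPM in MZsmad4a and 108.8, 129.0 and 75.4 CPM in WT. WT replicate 3 fell within the range of the MZsmad4a libraries. The log2 fold change was -0.46 (SE 0.18, 95% interval -0.88 to -0.043, adjusted p = 0.241, edgeR), -0.65 without WT replicate 3 and -0.28 without WT replicate 2. On log2(TPM + 1), which is scaled to transcript length, the srsf2b difference was -0.29 in limma, where the median of all genes was -0.093.

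SRSF3 (ENSDARG00000059360), a gene for a small SR protein, had 365, 362 and 309 CPM in MZsmad4a and 411, 422 and 384 CPM in WT. The ranges did not overlap. The log2 fold change was -0.23 (SE 0.090, 95% interval -0.44 to -0.024, adjusted p = 0.236, edgeR). The second SRSF3 gene (ENSDARG00000025397) had a log2 fold change of -0.055 (SE 0.083). SRSF5 had 178, 160 and 164 CPM in MZsmad4a and 193, 221 and 175 CPM in WT, with a log2 fold change of -0.23 (SE 0.10, adjusted p = 0.299, edgeR). WT replicate 3 was below MZsmad4a replicate 1. The prototype SR protein gene SRSF1 (ENSDARG00000057691) had 1073, 1029 and 1200 TPM in MZsmad4a and 934, 1182 and 1077 TPM in WT, and srsf5a had 877, 1250 and 961 TPM in MZsmad4a and 1270, 979 and 1088 TPM in WT. The genotypes overlapped at both genes. The remaining tested SR protein genes, the second SRSF1 gene, both SRSF6 genes, SRSF4, srsf7a, SRSF9, srsf10b and SRSF11, had log2 fold changes between -0.029 and 0.10. The median over 15 tested SR protein genes was -0.023. Of the untested genes, srsf3a had no count in any library, and a second gene, SRSF7, had 0.73, 0 and 0.06 TPM in MZsmad4a and 0.96, 0.50 and 0.19 TPM in WT.

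**Figure D3:**
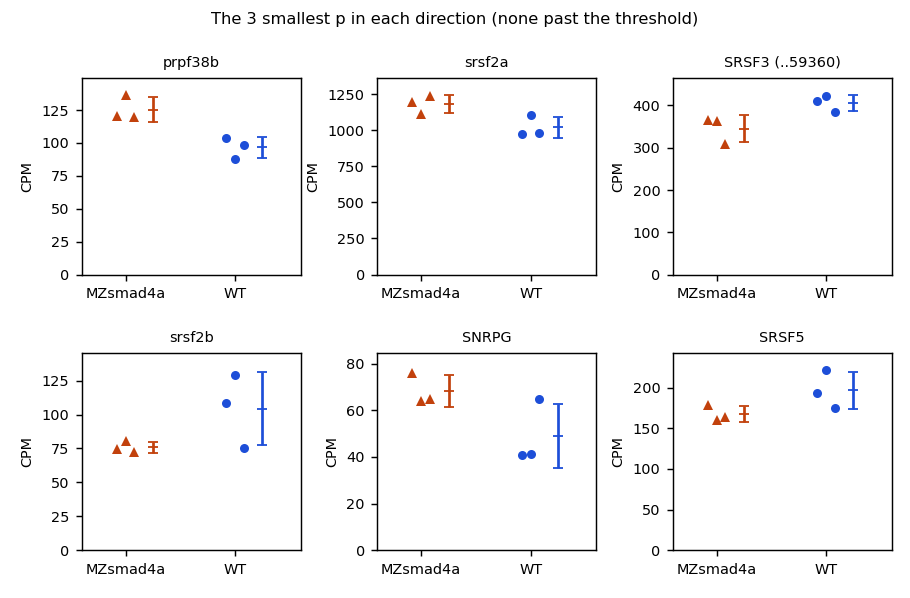
CPM (y axis from 0) of the 6 splicing factor genes with the 3 smallest p values in each direction, 1 point per library, MZsmad4a triangles left of WT circles, with the mean and SD (n = 3) beside them. None passed an adjusted p of 0.01; ranges are apart for prpf38b, srsf2a and SRSF3 and overlap for srsf2b, SNRPG and SRSF5.

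Among the Sm core genes, SNRPG, which encodes a member of the Sm ring, had 76.1, 64.2 and 64.7 CPM in MZsmad4a and 40.9, 41.3 and 64.8 CPM in WT. WT replicate 3 lay with the MZsmad4a libraries. The log2 fold change was 0.48 (SE 0.19, 95% interval 0.036 to 0.92, adjusted p = 0.249, edgeR), 0.73 without WT replicate 3 and 0.37 without either of the other WT libraries. With any other single library left out, no splicing factor gene passed an adjusted p of 0.05 in edgeR. Without WT replicate 3, 2 did, and the lowest was that of srsf2b, at 0.043. The share of all genes under 0.05 in that run was not counted. None of the 74 splicing factor genes tested in that run passed 0.01, against 71 of 16158 genes. SNRPB, which encodes Sm protein B, had 954, 910 and 1056 TPM in MZsmad4a and 1020, 1113 and 868 TPM in WT. The first SNRPD3 gene (ENSDARG00000013800) had 917, 904 and 951 TPM in MZsmad4a and 886, 967 and 899 TPM in WT. The genotypes overlapped at both. The other Sm genes, SNRPD1, SNRPD2, SNRPE, SNRPF and the second SNRPD3 gene, had log2 fold changes between -0.11 and 0.074.

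The genes of the U1 and U2 snRNPs were SNRPA and SNRPC, for U1 proteins A and C, and SNRPA1 and SNRPB2, for U2 proteins. SNRPA had 707, 712 and 763 TPM in MZsmad4a and 659, 760 and 723 TPM in WT, and SNRPC had 594, 587 and 671 TPM in MZsmad4a and 608, 603 and 576 TPM in WT. Both overlapped between genotypes. Log2 fold changes of these 4 genes ran from 0.0028 to 0.17. U2AF1, the small subunit that contacts the acceptor AG, had 262, 282 and 256 CPM in MZsmad4a and 232, 250 and 243 CPM in WT. The ranges were apart, and the log2 fold change was 0.14 (SE 0.078, adjusted p = 0.404, edgeR). Both U2AF2 genes, for the large subunit, overlapped between genotypes, at 0.073 and 0.12 on the log2 scale.

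SF3a and SF3b, which hold the branch site, had 3 and 6 genes, all tested. SF3A2 had 372, 390 and 397 TPM in MZsmad4a and 408, 437 and 386 TPM in WT, and SF3A3 had 298, 298 and 273 TPM in MZsmad4a and 332, 305 and 322 TPM in WT. SF3A3 TPM was lower in every MZsmad4a library, yet its CPM overlapped and its log2 fold change was -0.037 (SE 0.071). The log2 fold change of SF3A2 was 0.0068 (SE 0.091). SF3A1, named after its values were seen, had 492, 464 and 426 CPM in MZsmad4a and 359, 441 and 386 CPM in WT. The ranges overlapped, through WT replicate 2, and the log2 fold change was 0.22 (SE 0.098, 95% interval -0.0070 to 0.45, adjusted p = 0.299, edgeR). SF3A1 counts were not whole in any of the 6 libraries, so some of its reads were shared with another gene. SF3B1, the branch site clamp, had a log2 fold change of -0.0065 (SE 0.069), with a 95% interval of -0.17 to 0.15. SF3B2 had 353, 353 and 360 TPM in MZsmad4a and 378, 403 and 404 TPM in WT. Its TPM was also lower in every MZsmad4a library, while its CPM overlapped and its log2 fold change was -0.043 (SE 0.081). Log2 fold changes over the 6 SF3b genes ran from -0.15 (SF3B3) to 0.24 (SF3B5), SF3B4 and SF3B6 lying between.

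Among the 11 PRPF genes, prpf38b had the smallest p value of all the splicing factor genes. It had 120.1, 136.1 and 119.4 CPM in MZsmad4a and 103.7, 88.0 and 98.7 CPM in WT, and all MZsmad4a libraries were above all WT libraries. The log2 fold change was 0.37 (SE 0.10, 95% interval 0.13 to 0.61), with an adjusted p of 0.111 in edgeR and 0.0447 in DESeq2. PRPF38A, for a spliceosome component needed before activation, had 129.8, 128.8 and 131.9 CPM in MZsmad4a and 132.9, 135.7 and 133.4 CPM in WT, a narrow separation with a log2 fold change of -0.042 (SE 0.077). PRPF8, the core of the catalytic center, had 381, 338 and 380 TPM in MZsmad4a and 384, 373 and 352 TPM in WT. PRPF19, a ubiquitin ligase of the spliceosome, had 369, 405 and 392 TPM in MZsmad4a and 380, 397 and 388 TPM in WT. The genotypes overlapped at both. PRPF3, PRPF4, PRPF6, PRPF18, PRPF31 and PRPF39 had log2 fold changes between -0.061 and 0.19.

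Counting ranges rather than fitted p values, CPM did not overlap between genotypes for 12 of 73 tested genes (16.4%), against 23.6% of all genes tested. The MZsmad4a libraries were lower for 2 of these (PRPF38A and SRSF3), against 11.9% of all genes, and higher for 10, against 11.8%. The abundant genes were also uneven: of 1654 tested genes with a mean above 100 TPM, 107 were lower and 310 higher by this count. The higher ones included prpf38b, PRPF3, SF3B5, srsf2a, U2AF1, hnrnpa0b, HNRNPL and 1 gene each of HNRNPK and HNRNPU. In TPM the ranges of these named higher genes overlapped except those of SF3B5, at 241 to 248 TPM in MZsmad4a and 202 to 231 TPM in WT. PRPF38A (191 to 196 against 208 to 221 TPM) and SRSF3 (646 to 775 against 852 to 943 TPM) stayed apart and lower. Apart and lower in TPM, though overlapping in CPM, were also PRPF18, SF3A3, SF3B2, SF3B6, SRSF4, SRSF5, SNRPD1, SNRPF, hnrnpl2, hnrnpr, hnrnpul1 and hnrnpul1l. The direction of the imbalance therefore depended on the unit. On log2(TPM + 1) the median of all genes was -0.093.

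Zebrafish keeps many duplicated genes, so the share of each copy within its pair was also compared. By the rule that symbols differ only in a final a or b, 4 pairs were tested. The ranges of the TPM share were apart in 2. Without WT replicate 3 they were apart in all 4, but ranges of fewer libraries come apart more readily. In that case the closest libraries of hnrnpa0a with hnrnpa0b were at 91.076% in MZsmad4a and 91.074% in WT. The share of srsf2a in srsf2a plus srsf2b was 95.2, 94.7 and 95.4% in MZsmad4a and 93.1, 93.2 and 94.5% in WT, a difference of 1.47 points. The share of PRPF38A in PRPF38A plus prpf38b was 65.1, 61.4 and 64.6% in MZsmad4a and 67.8, 71.4 and 69.2% in WT, a difference of -5.78 points. PRPF38A and prpf38b are separate genes and not copies of 1 gene, as are SNRPA and SNRPB, whose shares overlapped (difference -1.04 points, exact p = 0.7). The other pair of copies, hnrnpa0a and hnrnpa0b, overlapped, with hnrnpa0b at 91.6 ± 0.5% in MZsmad4a and 91.2 ± 0.4% in WT (SD, n = 3 each). Some reads of both genes were divided by estimate.

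Another 8 pairs share 1 symbol and were added after the symbols were seen. SRSF3 was the one of these with ranges apart in TPM share. The HNRNPK ranges, which overlapped in TPM share, were apart in the share of CPM and in the log2 ratio of counts, where the more abundant gene was lower in MZsmad4a. In SRSF3 the more abundant gene held 60.0, 62.8 and 59.1% in MZsmad4a and 62.9, 63.9 and 62.9% in WT. The difference of -2.63 points had an exact two-sided permutation p of 0.1, as did srsf2a and PRPF38A, and 0.1 is the smallest p that 3 against 3 libraries can give. Adjusted over all 12 pairs the lowest p was 0.4. The pairs differed in balance: the HNRNPAB genes were near parity, at 52.2 ± 1.2% in MZsmad4a and 52.1 ± 1.9% in WT, while 1 HNRNPK gene held 96.0 ± 0.3% in MZsmad4a and 96.5 ± 0.3% in WT.

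**Figure D4:**
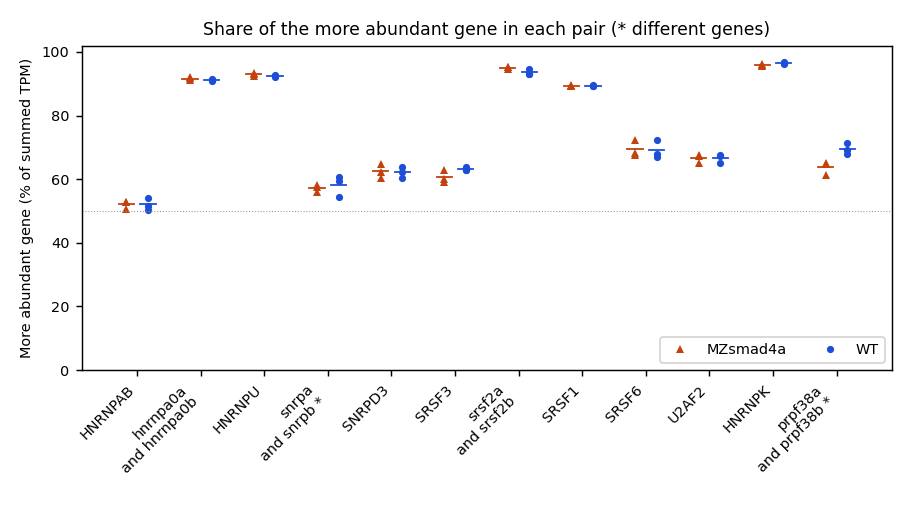
Share of the more abundant gene in the summed TPM of each of 12 pairs (y axis, percent, from 0), 1 point per library, MZsmad4a triangles left of WT circles, lines at the means; an asterisk marks the 2 pairs of different genes. Ranges are apart for SRSF3, srsf2a with srsf2b, and PRPF38A with prpf38b.

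The abundance-weighted transcript length of a gene, which moves with the isoforms in use, was compared as a measure that the symbol rule did not use. It was tested for the 52 genes that passed the filter on low counts and whose length varied between libraries. None passed an adjusted p of 0.01 in limma (0.0593% of the 8425 genes compared did), and 1 had an unadjusted p under 0.05, against 6.59% of all genes compared. That gene was srsf2b, at 2127, 2173 and 2043 bases in MZsmad4a and 2528, 2671 and 2232 bases in WT. The 3 WT libraries were all longer, with a log2 difference of -0.22 (SE 0.076, 95% interval -0.42 to -0.026, limma adjusted p = 0.722). It was also the 1 gene of the 52 whose difference exceeded 0.1 on the log2 scale, as 18.6% of all genes compared did.

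Among 121 tested genes of other splicing classes (the LSm ring, snRNP proteins with the snrnp prefix, helicases, NTC and SMN complexes, exon junction complex, SR-related proteins and tissue regulators), 1 passed the threshold and was higher in MZsmad4a, and none was lower. That gene was qkia, a quaking family RNA-binding protein gene, at 1047, 1051 and 944 CPM in MZsmad4a and 707, 616 and 662 CPM in WT. The ranges did not overlap, and qkia rose by 0.62 on the log2 scale (SE 0.083, adjusted p = 0.00961, edgeR). That 1 call among 121 genes stands against 0.712% of all genes tested. The qkia call was lost when any 1 of the 6 libraries was left out, with library size as the only scaling and in limma on log2 TPM. At an unadjusted p under 0.05 there were 14 higher and 2 lower in this list (13.2%), against 17.5% of all genes tested, with 1365 higher and 1385 lower. The list's median log2 fold change was 0.068, against -0.0078 over all genes tested. Of the 130 genes in the list, 74 had a mean above 100 TPM. Over the tested genes above 100 TPM, 218 were higher and 84 lower at an unadjusted p under 0.05 in edgeR, with a median of 0.055.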

How the data were processed

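RNA was sequenced as paired-end libraries of poly(A) RNA. Per the study's methods the authors trimmed reads with cutadapt, aligned them with STAR to GRCz11 with an Ensembl annotation and quantified genes with RSEM; bcl2fastq 2.20.0 is named in the submitters' processing notes. The deposited expected counts are RSEM estimates, and the deposited TPM values are scaled by the authors to transcript length and library. The deposited FPKM were not used. The deposited transcript length is in bases, as the authors' RSEM weighted it by abundance. Gene symbols came from an Ensembl name table (26433 of 32266 IDs had one; symbols are spelled as there). One gene that met the rule, srsf10a, is not analysed here, and 1 tested gene enters the counts and medians but is not reported individually.

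Expected counts were rounded and tested with edgeR 4.0.16 (quasi-likelihood, filterByExpr, TMM) in R 4.3.3, genotype only, Benjamini-Hochberg over all 15720 genes, at an adjusted p of 0.01. CPM are TMM-scaled. Alternatives used DESeq2 1.42.0 and limma 3.58.1, with pseudocounts of 1 and 0.1 on log2 TPM; summaries used Python 3.11.15, pandas 2.3.3 and numpy 2.4.6. Lengths were tested with limma on log2 values. The edgeR and limma code was tested on simulated data. Counting error falls with depth, and all 6 libraries were used. The study describes the libraries of a genotype as biological replicates and speaks of different clutches, without saying which library came from which clutch.

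Named genes are those past the threshold, the 3 smallest p in each direction, the 10 most abundant, the 2 most abundant of each role, and both genes of the 4 most abundant pairs, taken with and without the shared-symbol pairs; where another gene is named by its value, it was chosen after seeing it. Pairs were defined by a final a or b. This rule also caught SNRPA with SNRPB and PRPF38A with prpf38b, which are different genes; they were left out at first, after their values had been seen, and then restored, so that the comparison follows the rule as written. The pairs with 1 shared symbol were added after the symbols were seen. The genes and lists were chosen with earlier results of these data known.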

Additional observations from a re-analysis of the deposited data

How the results depend on the processing

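No splicing factor gene passed an adjusted p of 0.01 under any alternative run. The count of other splicing genes past it, 1 (qkia), was 0 with the replicate block, with library size only, with at least 10 counts in every library, with both limma fits, and when any library was left out (0 to 0). The median log2 fold change of the splicing factor genes was 0.025 to 0.078 with a library left out, -0.060 with library size only and -0.047 with limma on log2(TPM + 1) or log2(TPM + 0.1); the all-gene median moved with it, to -0.11, -0.093 and -0.11. The count of a/b pairs with ranges apart, 2, was 2 to 4 with a library left out (4 without WT replicate 3), where ranges come apart more readily. It was 3 with shared-symbol pairs added, and 2 when the pairs of different genes were also left out. That last choice was made after their values were seen. By a different measure, same-numbered libraries all differed in share in the same direction for 3 a/b pairs. These included hnrnpa0a with hnrnpa0b, whose ranges overlapped. The share of all TPM held by the splicing factor genes together differed by -0.10 points (MZsmad4a minus WT). Without the gene with the highest TPM that difference was 0.11 points. Whether same-numbered libraries belong together is not stated, and correlations between 3 libraries per genotype cannot settle it. Over all genes, deviations of same-numbered libraries correlated at 0.11, -0.032 and 0.14. MZsmad4a replicates 1 and 3 correlated best with the same-numbered WT library, and MZsmad4a replicate 2 with WT replicate 1 (0.082). With the block 29 genes were called over all genes, against 112, and the log2 fold change of srsf5a was -0.0038. Several estimates near 0 changed sign. With library size only the log2 fold change was HNRNPA1L2 -0.067, HNRNPAB (ENSDARG00000007960) -0.011, HNRNPAB (ENSDARG00000099865) -0.016, HNRNPU (ENSDARG00000015206) -0.089, PRPF8 -0.0046, SF3A2 -0.10, SNRPB -0.054, SNRPD3 (ENSDARG00000013800) -0.019, SNRPD3 (ENSDARG00000076283) -0.035, SRSF1 (ENSDARG00000057691) -0.00051, U2AF2 (ENSDARG00000011740) -0.035, hnrnpa0a -0.082, hnrnpa0l -0.048, srsf5a -0.11. With limma on log2(TPM + 1) or log2(TPM + 0.1) it was HNRNPA1L2 -0.041, HNRNPAB (ENSDARG00000007960) -0.0090, HNRNPAB (ENSDARG00000099865) -0.013, HNRNPU (ENSDARG00000015206) -0.097, PRPF8 -0.014, SF3A2 -0.087, SNRPB -0.035, SNRPD3 (ENSDARG00000076283) -0.0085, hnrnpa0a -0.025, hnrnpa0l -0.047, srsf5a -0.12. With a library left out it ranged as follows: HNRNPU (ENSDARG00000015206) -0.025 to 0.075, SF3A2 -0.038 to 0.088, SNRPB -0.040 to 0.17, hnrnpa0a -0.025 to 0.098, hnrnpa0l -0.0088 to 0.10, srsf5a -0.13 to 0.10. WT replicate 1 was the shallowest library, which limits weakly expressed genes such as hnrnph3.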
